A study of Mus musculus with 31 samples.

Results

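The 9 genes described here encode transcription factors of the signal transducer and activator of transcription (STAT) and interferon regulatory factor (IRF) families: Stat2, Stat3, Stat4, Stat5a, Stat6, Irf1, Irf5, Irf8 and Irf9. They were chosen by symbol, with earlier results of these data known, from the 15648 genes of a bulk RNA-seq table of the left hippocampus of 31 mice. Every mouse was an adult OT-I/Rag-/- animal, with Rag1 the gene lacking: the OT-I transgene encodes a T cell receptor for an ovalbumin (OVA) peptide, and without Rag1 no other T cells and no B cells mature, so that nearly all T cells are CD8+ and OVA-specific. Mice received recombinant adeno-associated virus (rAAV) into the dorsal CA1 region of both hemispheres, which carried OVA with the fluorescent marker mCherry in the rAAV-OVA group (rAAV-hSyn-OVA-mCherry) and the marker alone in the rAAV-control group (rAAV-hSyn-mCherry), both under the human synapsin promoter, which is active in neurons. Hippocampi were taken 2, 5, 8 and 28 days later from 4 mice per vector and day, except for 3 rAAV-control mice at 8 days. The control mice thus share the transgene, the Rag1 deficiency, the surgery and the fluorescent marker, and differ only in lacking OVA. As a model, this T cell response has a single receptor specificity and lacks CD4+ T cells and antibodies. The ages of the mice beyond adulthood are not given in the sources used here.

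STAT proteins wait in the cytoplasm, are phosphorylated by Janus kinases (JAKs) bound to cytokine receptors, pair through their SH2 domains and move to the nucleus. Type I interferons act through a complex named ISGF3, in which STAT2 and IRF9 join a further STAT protein and bind the interferon-stimulated response element (ISRE), whereas interferon-gamma and other cytokines act through STAT dimers at gamma-activated sites (GAS). IRF proteins share a DNA-binding domain that reads ISRE-like sequences, and IRF1 and IRF8 are known both as targets and as mediators of interferon-gamma, IRF8 also as a factor that microglia and other myeloid cells need.

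Promoter sequence was available for all 9 genes, as 14 annotated starts with 250 bases before and 50 after each (RefSeq, build GRCm38.p6). Both motifs of the pathway were searched on both strands: the GAS motif TTCNNNGAA, which reads the same on either strand, and the ISRE core GAAANNGAA. A GAS motif was present in 2 of the 14 windows, of Irf1 and Irf8, and an ISRE core in 2, of Stat2 and Stat4, whereas 8.3% and 8.56% of all 32851 promoter windows held them. No match of one motif overlapped a match of the other in these windows. The 4 stretches with a motif are shown to set the letters beside the genes whose levels follow. Capitals mark the motifs, and all 4 stretches are on the plus strand and end before the annotated start.
Irf1 (chr11:53769864-53769992, GAS 90 bases upstream): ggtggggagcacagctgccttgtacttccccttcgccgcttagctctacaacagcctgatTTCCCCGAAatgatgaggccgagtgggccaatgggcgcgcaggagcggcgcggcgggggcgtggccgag
Irf8 (chr8:120736127-120736273, GAS 171 and 153 bases upstream): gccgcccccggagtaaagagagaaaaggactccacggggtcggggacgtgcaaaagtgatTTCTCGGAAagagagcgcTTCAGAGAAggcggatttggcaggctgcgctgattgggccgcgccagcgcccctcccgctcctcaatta
Stat2 (chr10:128270248-128270345, ISRE core 221 bases upstream): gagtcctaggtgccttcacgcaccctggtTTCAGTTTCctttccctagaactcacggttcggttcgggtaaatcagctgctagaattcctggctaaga
Stat4 (chr1:52008083-52008211, ISRE core 97 bases upstream of the second annotated start): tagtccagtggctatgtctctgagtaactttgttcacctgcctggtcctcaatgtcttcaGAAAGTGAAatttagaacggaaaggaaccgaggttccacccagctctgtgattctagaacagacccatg
In the other 10 windows these letters were not found, which says nothing of sites elsewhere. A match is a description of the sequence, and binding was not measured.

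Library depth ranged from 19046977 to 57407902 counts with a median of 27024978. Levels are given as counts per 1e+06 counts (CPM) after trimmed mean of M values (TMM) scaling. Differences are given as Log2FC ± SE from a negative binomial model of all 31 mice that also holds 2 surrogate variables, and a gene is called differentially expressed (DEG) at an FDR of at most 0.05 and a Log2FC of at least 0.66 in either direction. Mice are the replicates, and p-values measure the spread between them that is left after the surrogate variables, which are estimated from the same counts. In bulk tissue, more cells of a type and more RNA per cell cannot be told apart.

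A pair of mice stood apart from their groups. The rAAV-control mouse D720 at 8 days exceeded both other mice of its group in all 9 genes, by 2.06-fold (Stat6) to 8.25-fold (Stat4) over their mean. The summed level of 5 T cell markers was 45.3 CPM in D720 against 5.85 and 7.48 CPM in the others, and 10 microglia markers summed to 1750 against 506 and 740 CPM. The rAAV-OVA mouse D844 at 28 days was lowest of its group in all 9 genes, at 0.0741 (Stat4) to 0.486 (Stat3) of the mean of the other mice. D844 held 39.4 CPM of T cell markers against 337 to 792 CPM, and 178 CPM of 12 monocyte and macrophage markers against 904 to 1930 CPM, while its 7 hippocampal neuron markers, at 562 CPM, were the lowest of the 31 mice. Its 8 general neuron markers summed to 6500 CPM, within the 3850 to 8360 CPM of the other mice of its group. Among these 8 markers, Slc17a7 was at 213 CPM, Gad1 at 692 CPM and Gad2 at 630 CPM in D844. In the rAAV-control mice of 8 days they were at 1420 to 1860, 207 to 342 and 104 to 167 CPM. What set these mice apart was not tested, and the differences between the vectors at 8 and 28 days are given with and without them. At 2 days, the rAAV-OVA mouse BEC-B542 exceeded the other mice of its group in 5 of the 9 genes, Irf1 (4.58 times their mean), Irf8 (2.21), Stat2 (2.09), Stat3 (1.84) and Irf5 (1.43).

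**Figure D1:**
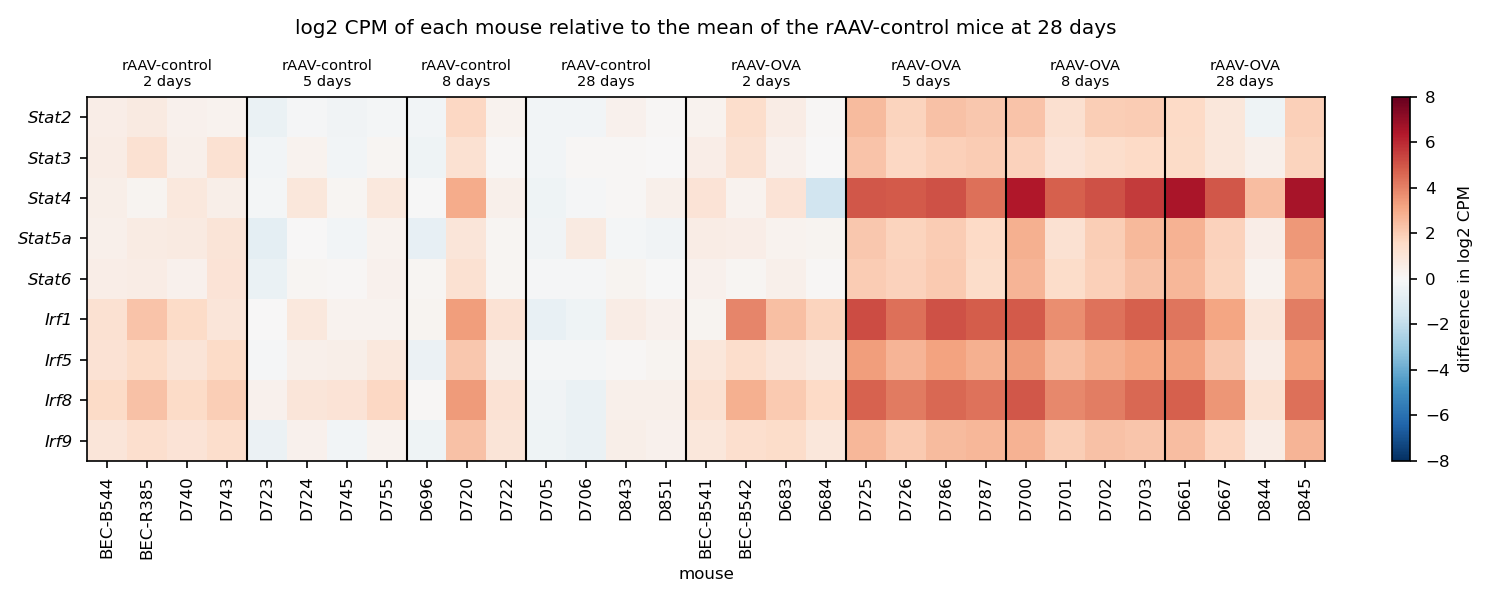
Each column is a mouse and each row a gene. Colour gives log2 CPM minus the mean log2 CPM of the 4 rAAV-control mice at 28 days. The rAAV-OVA mice at 5, 8 and 28 days other than D844 lie between 0.88 (Stat2) and 6.57 (Stat4), whereas D844 lies between -0.34 (Stat2) and 2.49 (Stat4) and the rAAV-control mouse D720 at 8 days between 0.97 (Stat5a) and 3.38 (Irf8).

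The comparison of rAAV-OVA with rAAV-control mice on each day addresses the response to T cells directed against an antigen of neurons. At 2 days none of the 9 genes was a DEG, as was the case for 0% of all genes. At 5 days all 9 were increased, with Log2FC between 1.44 and 3.71, where 9.63% of all genes were increased. At 8 days all 9 were again increased, against 9.32% of all genes, and at 28 days 8 of 9 were, against 12.8%. The median Log2FC of the 9 genes was -0.02, 1.98, 2.03 and 1.85 at 2, 5, 8 and 28 days, and the median of all genes stayed between -0.03 and 0.013. The lowest rAAV-OVA mouse exceeded the highest rAAV-control mouse in 9 of 9 genes at 5 days (21% of all genes), in 6 at 8 days (14.4%), in 7 at 28 days (15%) and in 0 at 2 days (2.22%). Without D720 at 8 days and without D844 at 28 days, the groups were separate in all 9 genes, as in 24.8% and 24% of all genes.

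The surrogate variables changed the size of these differences. The first of them was -0.289 in D720 against 0.11 and -0.114 in the other control mice of 8 days. In D844 it was 0.131 against -0.224 to -0.117 in the other rAAV-OVA mice of 28 days. What part of the response the surrogate variables take up was not tested. Without surrogate variables, all 9 Log2FC at 5 days were larger, between 1.84 and 4.54, and all 9 at 28 days too, between 1.2 and 6.11. At 8 days the Log2FC then ranged from 0.97 to 3.94 and 7 of 9 genes were called, where 7.58% of all genes were increased. When the 7 mice of 8 days were fitted alone, 0 of the 9 genes were called by edgeR, as were 0 of all genes, of which 4733 had an unadjusted p under 0.05. With D720 and D844 left out together and the surrogate variables estimated anew, all 9 genes were called at 5, 8 and 28 days, with Log2FC from 1.79 to 4.34, from 1.67 to 5.62 and from 1.17 to 6.20, where 11.8%, 12.1% and 14.6% of all genes were increased. The mice of 28 days came from both batches of the labels, 2 mice of each vector in each. Within batch 1 alone, Log2FC ranged from 1.35 to 6.64 and 8 genes were called, where 6.68% of all genes were increased. Within batch 2 alone, which holds D844, it ranged from 0.94 to 5.67 and 0 genes were called, with FDR from 0.37 to 0.56, as were 0 of all genes, of which 2039 had an unadjusted p under 0.05. All mice of 5 and 8 days were in batch 1.

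**Figure D2:**
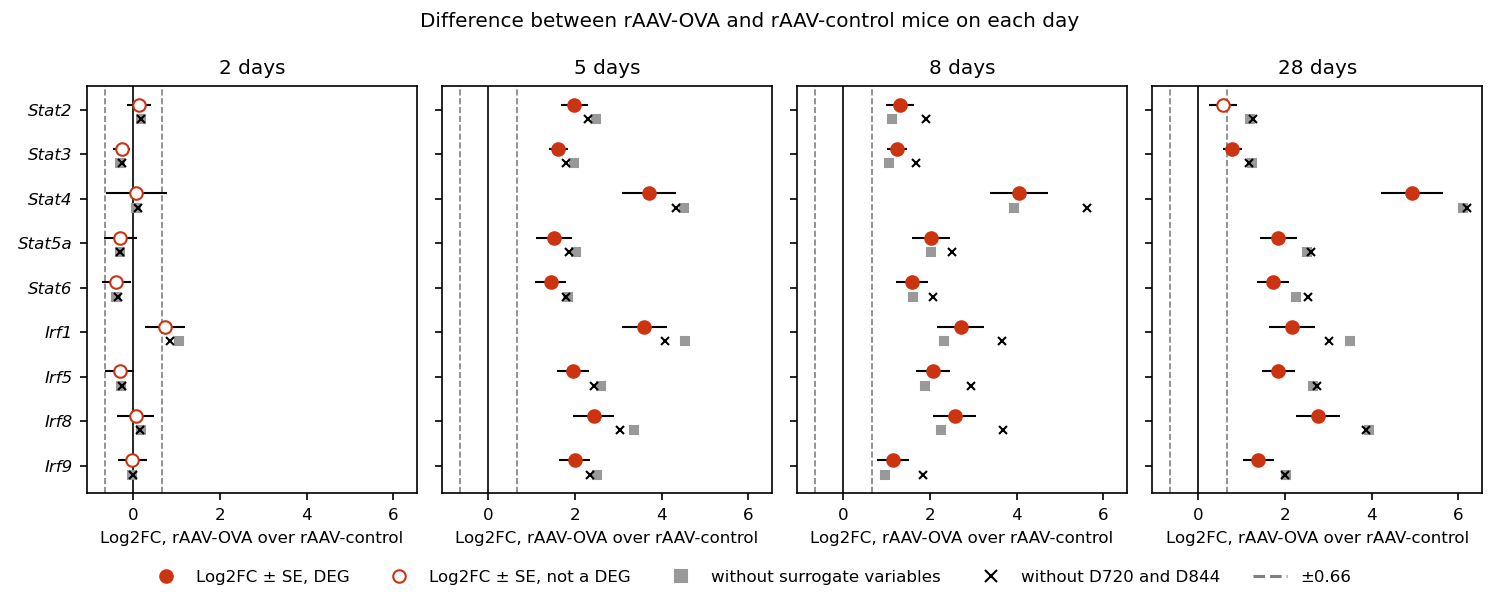
Log2FC of rAAV-OVA over rAAV-control mice for the 9 genes on each day, with SE as bars. Filled circles are DEGs, grey squares the fit without surrogate variables and crosses the fit without D720 and D844. No circle is filled at 2 days, where Irf1 is highest at 0.74, and circles lie above 0.66 on the later days, except Stat2 at 28 days at 0.57.

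Stat2 (ENSMUSG00000040033.17) and Irf9 (ENSMUSG00000002325.16) encode the parts of ISGF3 that are particular to type I and type III interferon signalling. Stat2 at 5 days measured 77.8, 100, 113 and 127 CPM in rAAV-OVA mice and 15.2, 18.4, 20.1 and 21 CPM in rAAV-control mice. At 8 days the levels were 55.1, 89.2, 92.2 and 109.7 CPM against 19.2, 27.5 and 71.7 CPM, and at 28 days 17.6, 41.1, 66.3 and 83.1 CPM against 19.1, 19.5, 23.4 and 28.9 CPM. The groups were separate at 5 days, whereas D720 (71.7 CPM) lay within the rAAV-OVA range at 8 days and D844 (17.6 CPM) lay below all control mice at 28 days. Stat2 rose at 5 days (Log2FC 1.98 ± 0.31, FDR = 8.8e-05) and at 8 days (Log2FC 1.30 ± 0.32, FDR = 0.0066). At 28 days it was not a DEG (Log2FC 0.57 ± 0.31, FDR = 0.16), but it passed both limits without surrogate variables (Log2FC 1.2, FDR = 0.013), within batch 1 alone (1.53, FDR = 0.032) and without D844 (1.07, FDR = 0.042). It also passed when D684, D740, D723, D701 or D722 was left out, with Log2FC from 0.71 to 0.85. Its call at 8 days was lost without surrogate variables (Log2FC 1.13, FDR = 0.064), without BEC-B541 (1.02, FDR = 0.1) and without D722 (0.89, FDR = 0.16), and was kept without D720 (1.75, FDR = 0.0017).

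Irf9, the DNA-binding part of ISGF3, measured 46.8, 62.4, 69 and 69.3 CPM in rAAV-OVA mice against 7.65, 9.05, 12.9 and 13.4 CPM in rAAV-control mice at 5 days, 42.3, 50.8, 54 and 74.9 against 8.56, 21.7 and 54.7 CPM at 8 days, and 16.3, 35, 58.9 and 72.4 against 7.55, 8.45, 13.9 and 15 CPM at 28 days. D720, at 54.7 CPM, exceeded 3 of the 4 rAAV-OVA mice at 8 days, and D844, at 16.3 CPM, stood just above the highest control mouse at 28 days. Irf9 rose at 5 days (Log2FC 2.00 ± 0.36, FDR = 0.00028), 8 days (Log2FC 1.15 ± 0.37, FDR = 0.033) and 28 days (Log2FC 1.38 ± 0.36, FDR = 0.0058). The call at 8 days was the least stable of the 9 genes: it was lost in 13 of the 31 fits that left out 1 mouse, with Log2FC from 0.54 to 1.71 over all of them, and without surrogate variables (0.97, FDR = 0.13). Without D720 it was 1.71 (FDR = 0.0052). At 28 days the Log2FC was 2.02 without surrogate variables and 1.69 without D844, both called.

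Irf1 (ENSMUSG00000018899.18), an early target of interferon-gamma that activates antigen-processing and guanylate-binding protein genes, had a 23.2-fold ratio of group means at 5 days, next to Stat4 at 23.9-fold. It measured 122, 164, 199.7 and 214 CPM in rAAV-OVA mice and 5.95, 6.89, 7.01 and 10.3 CPM in rAAV-control mice at 5 days. At 8 days the values were 78.4, 118, 158 and 176 against 6.72, 12.8 and 60.4 CPM, and at 28 days 11.6, 51.6, 98.3 and 114 against 3.77, 4.53, 7.42 and 8.74 CPM. The groups were separate on all 3 days, although D844 (11.6 CPM) lay close to the highest control mouse at 28 days. The rise was called at 5 days (Log2FC 3.60 ± 0.52, FDR = 4.6e-05), 8 days (Log2FC 2.71 ± 0.54, FDR = 0.0015) and 28 days (Log2FC 2.16 ± 0.53, FDR = 0.0037). Group means were 175 ± 40.8 CPM (SD, n = 4) against 7.54 ± 1.90 CPM (SD, n = 4) at 5 days, and the model with surrogate variables gave a 12.2-fold difference. Without surrogate variables the Log2FC was 4.54 at 5 days and 3.49 at 28 days. Without D720 it was 3.39 at 8 days, and without D722 the call of that day was lost (1.98, FDR = 0.063). Without D844 it was 2.68 at 28 days.

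At 2 days Irf1 measured 6.59, 20.3, 30.4 and 87.6 CPM in rAAV-OVA mice and 11.1, 13.6, 16.6 and 28 CPM in rAAV-control mice. The groups overlapped, and 3 of the 4 rAAV-OVA values lay above 3 of the 4 control values. The difference was not called (Log2FC 0.74 ± 0.46, FDR = 0.67). It fell to a Log2FC of 0.20 without BEC-B542, and was 0.86 within batch 1 and 1.15 within batch 2. Of the other 8 genes at 2 days, none had an FDR under 0.75, and their Log2FC ranged from -0.39 (Stat6) to 0.13 (Stat2). Across all genes, 0 were DEGs at 2 days by edgeR, the lowest FDR was 0.21, and 1416 genes (9.05%) had an unadjusted p under 0.05. DESeq2 and limma voom also called 0 of the 9 genes.

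**Figure D3:**
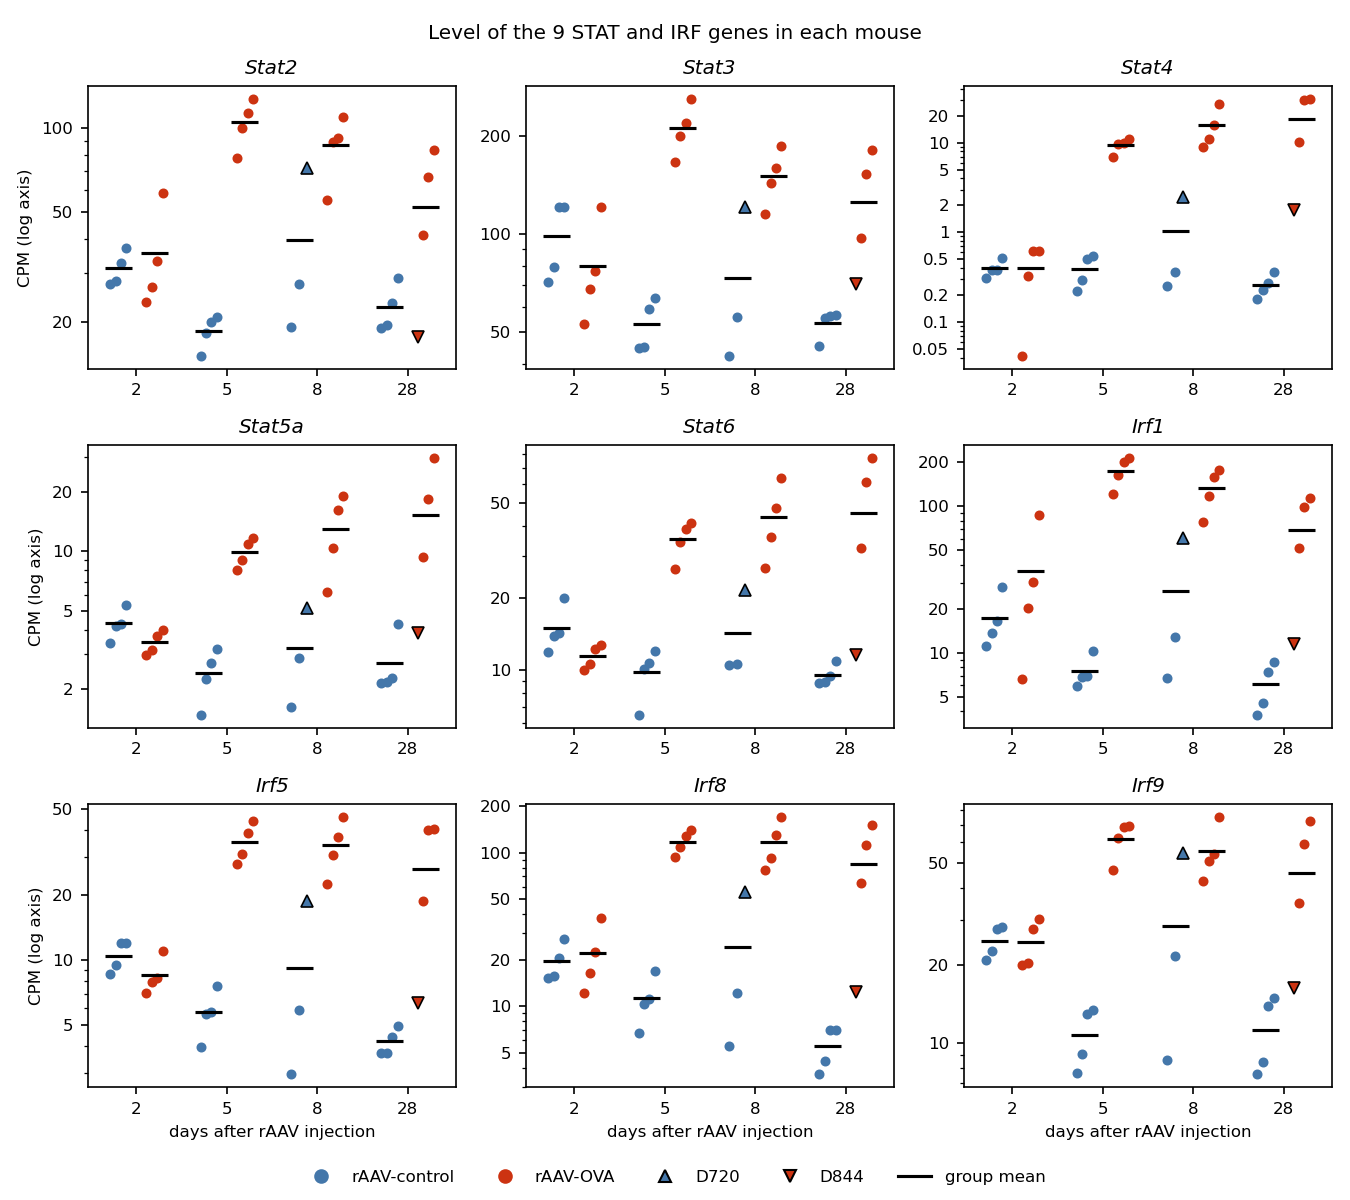
CPM of the 9 genes in each mouse on a log axis, by day after injection, with rAAV-control in blue, rAAV-OVA in red and a line at each group mean. The triangles mark D720 and D844. At 5 days every red point lies above every blue point in all 9 panels, and the means of the red groups are lower at 28 than at 5 days in 6 genes and higher for Stat4, Stat5a and Stat6, a difference that was not tested.

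Irf8 (ENSMUSG00000041515.11), which microglia and monocyte-derived cells require, and Irf5 (ENSMUSG00000029771.13), which acts downstream of Toll-like receptors in macrophages, were the closest pair of the 9 genes over the 31 mice (Pearson r = 0.987 of log2 CPM). Irf8 measured 94.1, 109, 129 and 139 CPM in rAAV-OVA mice and 6.67, 10.3, 11.2 and 17 CPM in rAAV-control mice at 5 days. At 8 days it measured 76.6, 92.3, 129.8 and 169.9 against 5.55, 12.1 and 55.7 CPM, and at 28 days 12.4, 63.3, 112 and 150.3 against 3.62, 4.43, 6.97 and 7.06 CPM. The groups were separate on all 3 days, with D720 (55.7 CPM) and D844 (12.4 CPM) as the mice nearest to the other group. Irf8 rose at 5 days (Log2FC 2.43 ± 0.48, FDR = 0.00062), 8 days (Log2FC 2.57 ± 0.50, FDR = 0.0013) and 28 days (Log2FC 2.76 ± 0.50, FDR = 0.00048). Without surrogate variables the Log2FC was 3.37 at 5 days and 3.94 at 28 days. Without D720 it was 3.38 at 8 days, and without D844 3.43 at 28 days.

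Irf5 levels at 5 days were 27.9, 31.1, 38.9 and 44 CPM with OVA and 3.98, 5.63, 5.75 and 7.62 CPM without. At 8 days they were 22.5, 30.7, 37.3 and 45.9 against 2.97, 5.89 and 18.9 CPM, and at 28 days 6.34, 18.9, 40.3 and 40.5 against 3.71, 3.73, 4.43 and 4.97 CPM. As for Irf8, the groups did not overlap on these days, and the control mouse D720, at 18.9 CPM, stood below the lowest rAAV-OVA mouse of its day. Irf5 rose at 5 days (Log2FC 1.97 ± 0.37, FDR = 0.00043), 8 days (Log2FC 2.08 ± 0.39, FDR = 0.00093) and 28 days (Log2FC 1.85 ± 0.38, FDR = 0.0011). The 5-day Log2FC was 2.61 and the 28-day one 2.65 without surrogate variables. Leaving out D720 gave 2.72 at 8 days and leaving out D844 gave 2.39 at 28 days.

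Stat3 (ENSMUSG00000004040.17) carries signals of the interleukin-6 and interleukin-10 families and is active in reactive astrocytes. It measured 167, 200.3, 219 and 260.5 CPM in rAAV-OVA mice and 44.8, 45.1, 59.1 and 63.9 CPM in rAAV-control mice at 5 days. The 8-day values were 116, 143, 159.5 and 187 against 42.4, 55.9 and 122 CPM, and the 28-day values 70.2, 97.8, 154 and 182 against 45.5, 55.4, 56.2 and 56.4 CPM. The groups were separate at 5 and 28 days, and D720 lay above the lowest rAAV-OVA mouse at 8 days. Stat3 rose at 5 days (Log2FC 1.62 ± 0.22, FDR = 1.9e-05), 8 days (Log2FC 1.24 ± 0.23, FDR = 0.00073) and 28 days (Log2FC 0.78 ± 0.22, FDR = 0.008). The call at 28 days was lost without BEC-B542, a mouse of 2 days that enters through the shared model (0.70, FDR = 0.099), and within batch 2 alone (1.16, FDR = 0.38), and was kept without D844 (1.06, FDR = 0.01). Without D720, Stat3 at 8 days had a Log2FC of 1.60.

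Stat4 (ENSMUSG00000062939.12), which interleukin-12 activates in T and natural killer cells, was low in control hippocampi and had the highest Log2FC of the 9 genes on days 5, 8 and 28, although without surrogate variables Irf1 stood at 4.54 and Stat4 at 4.52 at 5 days. Control levels over all 4 days were 0.183 to 2.51 CPM, the highest being D720, and at most 0.548 CPM without it. The control mice of 28 days held 5 to 9 counts of Stat4. The table keeps genes with 15 or more counts in 15 or more mice, so Stat4 entered it mainly through rAAV-OVA mice. Its place among the 9 increased genes is thus partly set by that filter. At 5 days the rAAV-OVA mice measured 6.91, 9.64, 10 and 11 CPM and the control mice 0.224, 0.297, 0.502 and 0.548 CPM. At 8 days they measured 8.91, 11, 15.9 and 27.3 against 0.251, 0.358 and 2.51 CPM, and at 28 days 1.76, 10.1, 30.2 and 30.8 against 0.183, 0.229, 0.269 and 0.361 CPM. All rAAV-OVA mice of these days lay above all control mice of their day, D844 included. Stat4 rose at 5 days (Log2FC 3.71 ± 0.63, FDR = 0.00017), 8 days (Log2FC 4.05 ± 0.67, FDR = 0.00037) and 28 days (Log2FC 4.92 ± 0.71, FDR = 8.3e-05). Its Log2FC was 4.52 at 5 days and 6.11 at 28 days without surrogate variables, 5.17 at 8 days without D720 and 5.48 at 28 days without D844. The summed level of the 5 T cell markers was 133 to 198 CPM in rAAV-OVA mice at 5 days, 201 to 654 CPM at 8 days and 39.4 to 792 CPM at 28 days, against 3.21 to 45.3 CPM in rAAV-control mice of the 4 days. The part of the T cells in the Stat4 level was not tested.

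Stat5a (ENSMUSG00000004043.15), which interleukin-2 and related cytokines activate, measured 8.02, 9.06, 10.9 and 11.7 CPM in rAAV-OVA mice and 1.48, 2.26, 2.70 and 3.21 CPM in rAAV-control mice at 5 days. Later levels were 6.25, 10.4, 16.1 and 19.1 against 1.63, 2.87 and 5.15 CPM at 8 days and 3.86, 9.37, 18.4 and 29.8 against 2.16, 2.17, 2.27 and 4.26 CPM at 28 days. Of days 5, 8 and 28, the groups overlapped at 28 days alone, D844 (3.86 CPM) lying below the highest control mouse. Stat5a rose at 5 days (Log2FC 1.51 ± 0.41, FDR = 0.0079), 8 days (Log2FC 2.03 ± 0.43, FDR = 0.0025) and 28 days (Log2FC 1.85 ± 0.43, FDR = 0.0024). The 8-day call was lost without D722 (1.76, FDR = 0.06) and kept without D720 (2.27, FDR = 0.0053), and the 28-day Log2FC was 2.50 without surrogate variables and 2.29 without D844. Within batch 1 alone it missed the FDR limit at 28 days (2.17, FDR = 0.066).

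Stat6 (ENSMUSG00000002147.19), the factor of interleukin-4 and interleukin-13 signalling, measured 26.5, 34.4, 38.9 and 41.3 CPM against 6.49, 10.1, 10.7 and 12 CPM at 5 days. At 8 days it measured 26.8, 35.9, 47.5 and 63.9 against 10.5, 10.6 and 21.7 CPM, and at 28 days 11.6, 32.3, 61.1 and 77.1 against 8.82, 8.88, 9.46 and 10.9 CPM. The rAAV-OVA mice were above the control mice on each of these days, D844 only just. Stat6 rose at 5 days (Log2FC 1.44 ± 0.35, FDR = 0.0039), 8 days (Log2FC 1.58 ± 0.37, FDR = 0.005) and 28 days (Log2FC 1.73 ± 0.37, FDR = 0.0014). The 8-day call was lost without D722 (1.2, FDR = 0.1), and without D720 the Log2FC was 1.79. Without D844 the 28-day Log2FC was 2.30.

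The onset of the change was read from the rAAV-OVA mice alone, at 5 against 2 days. Every mouse of 5 days lay above every mouse of 2 days in all 9 genes, as in 17.7% of all genes, and 7 were called, where 6.6% of all genes were increased. Stat4 rose most (Log2FC 3.64 ± 0.66, FDR = 0.001), followed by Irf8 (Log2FC 1.69 ± 0.46, FDR = 0.016) and Irf1 (Log2FC 1.62 ± 0.48, FDR = 0.024). Irf5 (1.45), Stat6 (1.22), Stat2 (1.08) and Stat3 (0.98) were also called. Stat5a (Log2FC 1.00, FDR = 0.098) and Irf9 (0.80, FDR = 0.13) were not. Leaving out 1 mouse moved the count between 2 and 8, and it was 2 without D786, when Stat2, Stat6, Irf1, Irf5 and Irf8 lost their calls and 3.55% of all genes were increased. Irf1 lost its call in 11 of the 31 fits, Stat2 also without D684 or D725, and Stat6 also without BEC-B542 or D726. All mice of 5 days and 2 of the 4 mice of 2 days were in batch 1, and the count was 7 to 9 over the other settings, the batch label as covariate among them.

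Between later days no gene of the 9 was called in rAAV-OVA mice: 0 at 8 against 5 days (2.1% of all genes) and 0 at 28 against 8 days (2.86%). DESeq2 and limma voom called 0 and 0 of the 9 in the first and 1 and 1 in the second comparison. By edgeR, 3001 and 3463 of all genes had an unadjusted p under 0.05. The mean at 28 days was 0.393 of that at 5 days for Irf1, 0.498 for Stat2, 0.594 for Stat3 and 0.718 to 0.748 for Irf8, Irf9 and Irf5. It was 1.29 times that at 5 days for Stat6, 1.55 times for Stat5a and 1.94 times for Stat4. The means at 28 days were 18.2 ± 14.6 CPM for Stat4 and 68.7 ± 46.3 CPM for Irf1 (SD, n = 4), with D844 included. Without D844 the ratios of 28 to 5 days were 0.502 for Irf1, 0.608 for Stat2, 0.682 for Stat3, 0.896 to 0.938 for Irf9, Irf8 and Irf5, 1.61 for Stat6, 1.93 for Stat5a and 2.53 for Stat4. The difference between 28 and 5 days within rAAV-OVA mice was not tested. Irf1 at 28 against 8 days had a Log2FC of -1.33 ± 0.46 (FDR = 0.089) and Stat2 -0.90 ± 0.28 (FDR = 0.066).

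The difference between the responses of a pair of days was tested as an interaction, in which a response is the Log2FC of rAAV-OVA over rAAV-control on a day. The responses share the model but not the mice. Between 8 and 5 days 0 of the 9 genes differed (0.179% of all genes), and between 28 and 8 days 0 (0% of all genes). DESeq2 and limma voom called 0 in both. By edgeR, 1129 and 2530 of all genes had an unadjusted p under 0.05. Between 28 and 5 days 1 of the 9 differed (6.13% of all genes): the response of Stat2 was smaller at 28 days, with a difference of -1.41 ± 0.40 (FDR = 0.029). That call was lost without surrogate variables (-1.29, FDR = 0.17), without D844 (-1.09, FDR = 0.16) and in 11 of the 31 fits that left out 1 mouse, and was kept without D720 and D844 together (-1.06, FDR = 0.042). With the batch label in place of the surrogate variables it was lost (-1.26, FDR = 0.16), and with the batch label beside them it was kept (-1.42, FDR = 0.023). Stat3 came next (-0.83 ± 0.28, FDR = 0.058), then Irf1 (-1.44 ± 0.66, FDR = 0.16). Stat4 had the largest positive difference (1.22 ± 0.90, FDR = 0.4).

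In rAAV-control mice, all 4 mice of 5 days lay below all 4 of 2 days in 6 of the 9 genes (5.06% of all genes), and all 4 of 28 days did so in 6 (8.83%). Irf9 measured 21, 22.7, 27.7 and 28.1 CPM at 2 days, 7.65, 9.05, 12.9 and 13.4 CPM at 5 days and 7.55, 8.45, 13.9 and 15 CPM at 28 days, and the groups of 5 and 28 days each lay below that of 2 days. Of the 9 genes, Stat3 alone was called: it measured 71.3, 79.6, 122 and 122 CPM at 2 days, and fell at 5 days (Log2FC -0.91 ± 0.20, FDR = 0.019, 1.43% of all genes decreased) and at 28 days (Log2FC -0.74 ± 0.20, FDR = 0.044, 2.66% of all genes decreased). The call at 5 days was lost when BEC-B541, D740, D743, BEC-R385, D723 or D724 was left out and that at 28 days in 16 of 31 such fits, and both were lost without surrogate variables (-0.89, FDR = 0.2, and -0.88, FDR = 0.12). All control mice of 5 days and 2 of the 4 of 2 days were in batch 1, and both calls were also lost with the batch label in place of the surrogate variables (-0.78, FDR = 0.31, and -0.89, FDR = 0.11) and beside them (-0.83, FDR = 0.072, and -0.73, FDR = 0.053). Irf9 at 5 days came close (Log2FC -1.22 ± 0.33, FDR = 0.054). Over these comparisons the summed monocyte and macrophage markers were 281 to 1170 CPM at 2 days, 94.5 to 252 CPM at 5 days and 90.1 to 116 CPM at 28 days, and the 1 neutrophil marker in the table, S100a8, 0.237 to 28.3 CPM, 0.179 to 1.93 CPM and 0.154 to 0.321 CPM. A pair of batch 1 mice carried the high S100a8 values of 2 days, D743 (28.3 CPM) and D740 (9.93 CPM), against 0.237 and 0.451 CPM in batch 2, and D743 alone reached the 1170 CPM of monocyte and macrophage markers, the others being at 281 to 446 CPM. Microglia markers summed to 816 to 1010 CPM at 2 days, 615 to 1030 CPM at 5 days and 483 to 545 CPM at 28 days, where 2 of the 10 were decreased, and Irf8 (Log2FC -1.45, FDR = 0.1) and Irf5 (-1.06, FDR = 0.13) were not called at 28 days although their groups did not overlap. The part of these cells in the control levels was not tested.

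Ordered by group mean, the 3 rAAV-OVA groups of 5, 8 and 28 days held the first 3 places for all 9 genes. For Stat2, Stat3, Irf1, Irf5, Irf8 and Irf9 the order was 5, 8 and 28 days, and for Stat4, Stat5a and Stat6 it was 28, 8 and 5 days. Neighbouring groups overlapped within these 3 places in every gene. The step from the third place to the fourth was free of overlap for Stat4, Stat5a and Stat6, in which the third group was that of 5 days, and the next group was the control group of 8 days for Stat4 and of 2 days for Stat5a and Stat6. In the other 6 genes the third group was that of 28 days, which holds D844, and it overlapped with the fourth. The only other steps without overlap were from the rAAV-control group of 2 days to that of 5 days for Irf1 and from the rAAV-OVA group of 2 days to the control group of 28 days for Irf9. The lowest group was the control group of 28 days for Stat4, Stat6, Irf1, Irf5 and Irf8, and that of 5 days for Stat2, Stat3, Stat5a and Irf9. Without D720 and D844 the order of the first 3 places was the same in all 9 genes, and the step from the third place to the fourth was free of overlap for Irf5, Irf8 and Irf9 as well, while no step further down was. The fourth group was then that of rAAV-OVA mice at 2 days for Stat4, and the control group of 8 days was lowest for Stat3 and Stat5a.

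Among the other genes of the table, the closest in pattern over the 31 mice were found by Pearson r of log2 CPM, as a description in which all points share the same libraries and the same split between later rAAV-OVA mice and the rest. Irf1 was closest to Gbp2 (r = 0.99), Irgm1 (0.989) and Tap1 (0.989). Irf8 was closest to Sting1 (0.991), Mpeg1 (0.989) and Sp140 (0.987), and Irf5 to Mpeg1 (0.991), Themis2 (0.99) and Sting1 (0.989), so that Irf5 and Irf8 had 2 of these genes in common. Stat2 was closest to Rnf213 (0.982), Herc6 (0.977) and Samhd1 (0.976), and Irf9 had Trim30a (0.984) and Ifi209 (0.982) among its closest 3, the other of which is not reported here. Stat4 was closest to Septin1 (0.982), to Trbc2 (0.978), which encodes a constant part of the T cell receptor, and to Ptpn22 (0.978). Stat3 was closest to Myd88 (0.977), Parp3 (0.97) and Ptpn1 (0.967), Stat5a to Gimap8 (0.975), Hnrnpf (0.973) and Tmem154 (0.973), and Stat6 to Nfkb1 (0.993), Shisa5 (0.988) and Ttc7 (0.986). After subtraction of the group means, r was still 0.984 for Stat6 and Nfkb1 and 0.834 for Stat4 and Ptpn22, the lowest of the 27 pairs. Among the 36 pairs of the 9 genes, the highest r was 0.987, and r of the deviations from group means ranged from 0.61 to 0.966.

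Upstream of the 9 genes, 21 receptor genes of interferons and of cytokines that signal through STATs were in the table, of which 14 were increased and 0 decreased at 5 days, 15 and 0 at 8 days and 17 and 0 at 28 days, where 9.63%, 9.32% and 12.8% of all genes were increased and 4.72%, 0.569% and 4.88% decreased. The interleukin-2 receptor chains led at 5 days: Il2rb (49.5 against 0.616 CPM, Log2FC 5.46 ± 0.61), Il2ra (15.9 against 0.273 CPM, 5.07 ± 0.58) and Il2rg (62.9 against 1.68 CPM, 4.11 ± 0.69), which signal through STAT5 proteins. Of the 4 Janus kinases, 2 were increased at 5 days, Jak3 (1.37 ± 0.35), the partner of the common gamma chain, and Jak2 (0.98 ± 0.14), 3 at 8 days and 2 at 28 days. Of 17 inhibitors of the pathway, 5 were increased at 5 and at 8 days and 3 at 28 days, with a median Log2FC of 0.32, 0.13 and 0.13, and the share at 28 days was near that of all genes. Those with the largest rise at 5 days were Socs3 (53.3 against 2.51 CPM, Log2FC 3.54 ± 0.58), Socs1 (20.3 against 1.03 CPM, 3.52 ± 0.47), both feedback inhibitors of JAKs, and Usp18 (24.7 against 1.76 CPM, 2.88 ± 0.65), which curbs type I interferon receptor signalling. Of the 7 other STAT and IRF genes in the table, 4, 4 and 5 were increased at 5, 8 and 28 days and 0 decreased. The count at 8 days was 2 without surrogate variables and 6 without D720 and D844, and at 5 and 28 days it was 5 and 6 in the first case and 5 and 7 in the second. Without both mice the increased receptors were 16, 16 and 18 at 5, 8 and 28 days, the Janus kinases 3, 3 and 3 and the inhibitors 7, 5 and 4, and without surrogate variables the inhibitors at 28 days were 5.

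Downstream, all 21 interferon-gamma response genes in the table were increased at 5 days with a median Log2FC of 3.92, 21 at 8 days (2.67) and 20 at 28 days (2.55). Among them, Cxcl9, a chemokine for activated T cells, reached 143 against 1.67 CPM at 5 days (Log2FC 5.51 ± 0.91), and Ciita, the transactivator of MHC class II genes, 54.9 against 0.697 CPM (5.39 ± 0.71). Of 23 genes induced through ISGF3, 22 were increased at 5 days (median Log2FC 2.94), 6 at 8 days (1.33) and 10 at 28 days (1.62). Examples at 5 days were Oas3 (4.78 ± 0.85), Oasl1 (4.02 ± 0.84) and Isg15 (3.74 ± 0.72), and reads of OAS genes may be shared among close relatives. The counts of the later days depended on the fit: without surrogate variables 0 of the ISGF3 genes and 4 of the interferon-gamma genes were called at 8 days and 22 and 21 at 28 days, and without D720 and D844 17 and 21 were called at 8 days and 19 and 21 at 28 days. Tested as a difference in response by edgeR, 0 of the 23 ISGF3 genes differed between 8 and 5 days and 0 between 28 and 5 days, with 9 and 5 at an unadjusted p under 0.05, and 0 and 1 of the 21 interferon-gamma genes did, with 0 and 5. Of all genes, 0.179% and 6.13% differed, and 7.21% and 27.1% had an unadjusted p under 0.05. The counts between 28 and 5 days are thus not above the share of all genes.

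The lists tied to single STATs were smaller. Of 11 genes induced through STAT3, 8, 6 and 8 were increased at 5, 8 and 28 days, led at 5 days by Socs3, by Pim1 (31.5 against 2.39 CPM, Log2FC 3.26 ± 0.37) and by Timp1 (35.9 against 2.22 CPM, 3.04 ± 0.80), an inhibitor of matrix proteases. All 4 genes of the STAT4 axis of CD8+ T cells in the table, of 10 listed, were increased on the 3 days, among them Gzmb (31.2 against 0.15 CPM at 5 days, 6.80 ± 0.84), which encodes granzyme B, Il18rap (4.60 ± 0.62) and Il12rb1 (3.57 ± 0.65), a chain of the interleukin-12 receptor. Genes as low in control mice as Gzmb pass the count filter of the table mainly through rAAV-OVA mice. That all 4 were increased was thus partly set by the filter and gives no separate support. Of 5 genes induced through STAT5, 3, 4 and 3 were increased, including Bcl2 (25.1 against 15 CPM at 5 days, 0.78 ± 0.14). Of 7 genes induced through STAT6, 4, 3 and 4 were increased, among them Chil3 (8.69 against 0.192 CPM at 5 days, 4.72 ± 0.58) and Ccl22 (6.82 against 0.211 CPM, 4.16 ± 0.83). Of 9 partners of IRF8 and myeloid genes, 7, 6 and 7 were increased and 1, 0 and 0 decreased, the rise being largest for Cybb (126 against 4.92 CPM at 5 days, 3.57 ± 0.85), a subunit of the phagocyte oxidase, and Batf3 (2.34 ± 0.39). Without D720 and D844 the increased genes at 5, 8 and 28 days were 10, 10 and 10 for STAT3, 4, 4 and 4 for the STAT4 axis, 4, 4 and 3 for STAT5, 5, 4 and 5 for STAT6 and 7, 7 and 7 for the IRF8 list, in which 0 were then decreased. Without surrogate variables they were 10, 5 and 10 for STAT3, and at 8 days 3, 4, 2 and 4 for the other lists in that order, with 1 of the STAT6 genes decreased at 28 days and 0 of the IRF8 list at 5 days. The lists share genes, such as Socs3 and Pim1, and other transcription factors are known to regulate many of them.

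**Figure D4:**
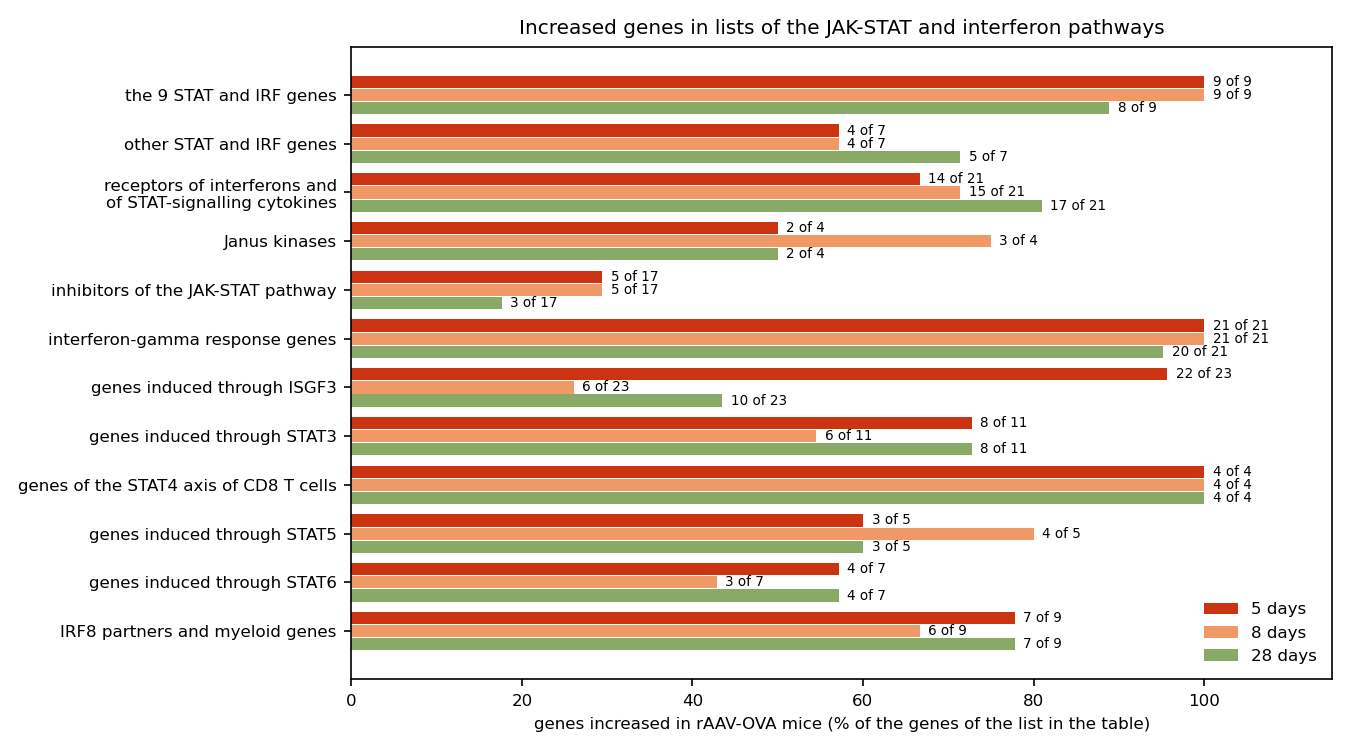
Share of the genes of each list that were increased DEGs in rAAV-OVA against rAAV-control mice at 5, 8 and 28 days, with counts beside the bars. In the fit with surrogate variables, the interferon-gamma list has 21, 21 and 20 of 21 genes and the ISGF3 list 22, 6 and 10 of 23.

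Markers of several cell types differed in the same comparisons. Of the 5 T cell markers in the table, all 5 were increased at 5, 8 and 28 days, led at 5 days by Cd8a (40.9 against 0.491 CPM), and 6 of the 11 listed, Cd3 chains included, were not analysed here. The table keeps genes with 15 or more counts in 15 or more mice. Markers high in rAAV-OVA mice pass this filter more readily, so the count of T cell markers gives no separate support. Of 12 monocyte and macrophage markers, 8, 7 and 9 were increased at 5, 8 and 28 days (9, 8 and 10 without D720 and D844), with summed levels in rAAV-OVA mice of 817 to 1500, 598 to 2170 and 178 to 1930 CPM. The 10 microglia markers summed to 1520 to 1550 CPM in rAAV-OVA mice at 5 days against 615 to 1030 CPM in control mice, with 4 increased and 1, Gpr34, decreased. At 8 days the sums were 1350 to 2100 against 506 to 1750 CPM, the highest control being D720, and 2 were increased, or 8 without D720 and D844 and 0 without surrogate variables. At 28 days they were 687 to 2410 against 483 to 545 CPM, the lowest rAAV-OVA mouse being D844, and 7 were increased, or 8 without both mice. Irf8 and Irf5 were higher in the same rAAV-OVA groups, and the part of the microglia in their levels was not tested. Of the 4 B cell and dendritic cell markers in the table only Itgax was increased at 5 and at 8 days, and 3 were at 28 days, Itgax (63.8 against 0.92 CPM) and, named after their values were seen, Flt3 and Cd79b, with a median Log2FC of 1.86. Without D720 and D844 the counts were 2, 4 and 3, and without surrogate variables 1, 0 and 3. The other 6 listed were not analysed here. Siglech is on this list and on the microglia list, and no B cells mature in these mice. The counts are therefore not a measure of B cells or dendritic cells. Hippocampal neuron markers summed to at most 910 CPM in rAAV-OVA mice at 5 days (median 860 CPM) and 562 to 1020 CPM at 28 days, against 1040 to 1350 and 1160 to 1250 CPM in control mice, and 3 and 5 of 7 were decreased. Without D720 and D844 these counts were 3 and 3, with 1 decreased at 8 days, and without surrogate variables 1 and 3. Of the other lists, 0 of 8 astrocyte markers and 0 of 7 oligodendrocyte markers were increased on any of these days in the model with surrogate variables, while 1 and 4 were decreased at 5 days, and 0, 0 and 3 of 6 endothelial markers were increased at 5, 8 and 28 days. Of the astrocyte markers, 2 were increased at 28 days both without surrogate variables and without D720 and D844, and 1 at 5 days without surrogate variables. In the fit without surrogate variables 3 astrocyte, 2 oligodendrocyte and 1 endothelial markers were decreased at 5 days. The sources of the STAT and IRF transcripts among these cells were not tested.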

How the data were processed

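Hippocampal RNA of 31 mice was sequenced by the authors as poly-A selected TruSeq libraries on a NovaSeq system. Per the study's methods, reads were trimmed with fastp, quantified with Salmon 1.8.0 against GENCODE M29 and summed to genes with tximeta, and the authors used DESeq2 1.36.0. The deposited table holds estimated counts of 15648 genes, kept where 15 or more mice had 15 or more counts, which were rounded to whole numbers. A further deposited table held the same values and was not used, and 0 columns of values were left unassigned. Totals of 19046977 to 57407902 counts limit the precision of low genes such as Stat4.

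Counts were scaled by TMM and tested with edgeR 4.0.16 (R 4.3.3), by the robust quasi-likelihood test over 8 groups of vector and day with 2 surrogate variables from sva 3.50.0, and Benjamini-Hochberg FDR was taken over all 15648 genes. The model was also run on simulated counts without batches or mice that stand apart, with an outcome not reported here. Such a run cannot show how the surrogate variables behave in these data. The SE is the Log2FC divided by the square root of F. Log2 CPM for similarity used a prior count of 2. The 9 genes and all lists were chosen with earlier results of these data known. All 9 genes are named, at most 3 genes of each list by the largest absolute Log2FC at 5 days among called genes, and the 3 genes with the highest r to each of the 9, apart from exceptions stated where they occur. Alternatives were no covariates, the batch label, DESeq2 1.42.0, limma voom (limma 3.58.1), other scaling and filters, single days or batches, and leaving out each mouse. Promoters came from RefSeq. The transcripts of OVA and mCherry were not analysed here. Some results of the lists are not reported here.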

Additional observations from a re-analysis of the deposited data

Results flagged for a closer look

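In the rAAV-control group of 28 days, Stat3 in mouse D705 (45.5 CPM) and Stat5a in mouse D706 (4.26 CPM) lay apart from the other 3 mice by Dixon's test. These were 2 of the 63 combinations of gene and group tested, and chance gives about 1 in 20. Stat5a in D706 is the value that D844 (3.86 CPM) failed to reach at 28 days.

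The response of Stat2 to OVA was smaller at 28 than at 5 days by an interaction test in edgeR (difference in Log2FC of -1.41, FDR = 0.029). It was -1.29 without surrogate variables (FDR = 0.17) and -1.09 without D844 (FDR = 0.16), neither of which passed.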

How the results depend on the processing

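No paired analysis was possible because no replicate number of the labels ties mice of different groups. The counts of the 9 genes called at 2 and 5 days, at 8 against 5 days in rAAV-OVA mice, and in the differences in response between 8 and 5 and between 28 and 8 days stayed within 1.5 times the reported count under all alternatives run. At 8 days the count of 9 became 0 with the mice of that day alone, and at 28 days the count of 8 became 0 within batch 2 alone. At 28 against 8 days in rAAV-OVA mice, DESeq2 and limma voom each called 1 gene in place of 0. In rAAV-control mice, the 1 call at 5 against 2 days became 0 without covariates, with the batch label and with the batch label and surrogate variables, 2 with DESeq2 size factors and with DESeq2, and 4 without D720 and D844. The 1 call at 28 against 2 days became 0 under the same 3 choices of covariates, with limma voom and with at least 15 counts in every mouse, 3 with DESeq2 and 4 without D720 and D844. The 1 call for the difference between 28 and 5 days became 0 without covariates and with the batch label, and 2 with DESeq2 and with limma voom. Leaving out 1 mouse gave 4 to 9 calls at 8 days, 7 to 9 at 28 days, 2 to 8 at 5 against 2 days, 0 to 1 at 28 against 8 days, 0 to 2 and 0 to 3 in control mice at 5 and at 28 against 2 days, and 0 to 2 for the difference between 28 and 5 days. The 4 calls at 8 days came without D722, which leaves D696 and D720 as control mice. For most fits of this paragraph the share of all genes called is not given. A shift of the 9 genes can then not be told from a shift of all genes. At 2 days, where no gene was called, the Log2FC of Stat4 turned to -0.67 with limma voom and -0.39 within batch 1, that of Irf8 to -0.03 with limma voom, that of Irf9 to 0.07 with the stricter filter and that of Stat5a to 0 within batch 2. Leaving out 1 mouse moved Stat2 from -0.09 to 0.34, Stat4 from -0.35 to 0.52, Irf8 from -0.22 to 0.40 and Irf9 from -0.30 to 0.16. The stricter filter removed Stat4. Leaving out D720 and D844 was chosen after seeing the data. Of 88 counts of increased genes compared in the pathway lists, 8 moved by over 1.5 times, all at 8 or 28 days. Counts of the marker lists are not among these 88, and those that moved are given with the markers. The cause of these shifts was not tested.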
